A study of Mus musculus with 12 samples.

Results

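The heterogeneous nuclear ribonucleoproteins (hnRNPs) and the SR proteins, rich in serine and arginine, are the main families of general splicing regulators. Their genes were taken as every gene of the count table whose symbol begins with Hnrnp, with Hnrp or with Srsf and a number, leaving out pseudogene symbols. This gave 31 of 24015 genes, 20 of them hnRNP genes and 11 SR genes. RNA was measured in nuclei sorted from the hippocampus of ArcCreERT2 x R26R-STOP-floxed-eYFP mice of genotype +/+, in which 4-hydroxytamoxifen switches on a yellow fluorescent reporter in cells where the Arc promoter is active, since that promoter drives the Cre. The groups were Reactivated, Late, Early and Basal, with 3 libraries each and 12 in all. All mice shared the transgenes and, per the labels, received the drug 1 h before fear conditioning, after 24 h and before 48 h in the dark. Some brains were collected 1.5 to 2 h after conditioning and others on day 5, with a renewed exposure to the cue in a portion of the later mice. The labels used here give no age. Each library pools nuclei of several mice, 10 to 12 per pool and 10000 nuclei per condition, with fixation in 1% paraformaldehyde and sorting by staining of Arc, GFP and the neuronal nuclear protein NeuN. The treatment label reads the same for all 12 libraries, with foot shock, no recall and collection on the first day, which goes against the titles Late and Reactivated. The groups therefore rest on the titles, and no label says which sorting gate belongs to which title or how Basal nuclei were chosen.

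Most hnRNPs bind nascent transcripts at short sequence elements such as runs of U, C, G or CA repeats. They often keep the splicing machinery away from exons, and they also package, export, stabilise and degrade RNA. SR proteins carry RNA recognition motifs and a tail of arginine and serine repeats, bind exonic enhancers and recruit the machinery to nearby splice sites. Both families reside in the nucleus, several members shuttle to the cytoplasm, and kinases of the SRPK and CLK families control the SR proteins by phosphorylation. Many of the genes limit their own level through exons that bring in an early stop codon and send the transcript to nonsense-mediated decay. In neurons these proteins act beside tissue-specific regulators such as the Nova, Rbfox and Celf proteins. The values below are of nuclear RNA for the whole gene, so they do not tell isoforms apart.

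The promoters of 5 genes that the results below turn on are shown here, to print the sequence upstream of genes with levels that moved in opposite directions. These are the genes with a single promoter entry among the 8 with the smallest p in the test among the 4 groups. Hnrnpd and Hnrnpu were highest in Late, and Hnrnpa3, Srsf10 and Srsf1 were highest in Basal. Each stretch runs 5′ to 3′ from 250 bases before to 50 bases after the start given by RefSeq (GRCm38.p6). Capitals mark the GC box (GGGCGG), the CCAAT box (CCAAT) and the ETS motif (CCGGAAG) on either strand.
Hnrnpd (chr5:99978889-99979188, minus strand): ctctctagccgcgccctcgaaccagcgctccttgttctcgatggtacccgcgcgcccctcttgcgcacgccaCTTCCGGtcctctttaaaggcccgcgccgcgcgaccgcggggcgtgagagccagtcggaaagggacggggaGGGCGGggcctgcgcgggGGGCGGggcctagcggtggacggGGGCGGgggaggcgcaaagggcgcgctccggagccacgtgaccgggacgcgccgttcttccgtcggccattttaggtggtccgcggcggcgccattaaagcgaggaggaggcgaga
Hnrnpu (chr1:178337766-178338065, minus strand): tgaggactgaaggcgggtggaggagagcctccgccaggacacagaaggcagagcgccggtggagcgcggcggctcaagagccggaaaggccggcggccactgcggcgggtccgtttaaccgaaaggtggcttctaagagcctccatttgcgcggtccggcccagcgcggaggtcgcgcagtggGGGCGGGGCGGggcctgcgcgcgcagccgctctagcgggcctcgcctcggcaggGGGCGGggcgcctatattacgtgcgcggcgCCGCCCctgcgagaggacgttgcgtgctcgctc
Hnrnpa3 (chr2:75659009-75659308, plus strand): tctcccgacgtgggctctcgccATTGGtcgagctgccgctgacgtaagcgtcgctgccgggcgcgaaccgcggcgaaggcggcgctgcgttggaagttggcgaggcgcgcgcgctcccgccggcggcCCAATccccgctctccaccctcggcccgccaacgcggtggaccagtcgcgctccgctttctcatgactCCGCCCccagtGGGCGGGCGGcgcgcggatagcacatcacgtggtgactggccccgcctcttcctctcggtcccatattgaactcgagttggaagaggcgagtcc
Srsf10 (chr4:135855821-135856120, plus strand): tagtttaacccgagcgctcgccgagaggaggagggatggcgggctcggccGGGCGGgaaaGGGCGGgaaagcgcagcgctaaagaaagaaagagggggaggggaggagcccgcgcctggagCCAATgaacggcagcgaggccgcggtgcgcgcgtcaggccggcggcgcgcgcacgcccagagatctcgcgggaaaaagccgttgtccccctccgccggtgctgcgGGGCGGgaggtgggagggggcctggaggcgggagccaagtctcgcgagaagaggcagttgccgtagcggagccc
Srsf1 (chr11:88047123-88047422, plus strand): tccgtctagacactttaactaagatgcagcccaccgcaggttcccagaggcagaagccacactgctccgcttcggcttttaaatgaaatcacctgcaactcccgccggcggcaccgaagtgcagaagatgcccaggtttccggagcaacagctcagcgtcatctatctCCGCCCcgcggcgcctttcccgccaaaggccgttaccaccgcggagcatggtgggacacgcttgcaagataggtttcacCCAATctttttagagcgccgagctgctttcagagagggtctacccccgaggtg

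All 5 hold at least 1 GC box, which is bound by factors of the Sp family. The CCAAT box stands in those of Hnrnpa3, Srsf10 and Srsf1, and the ETS motif in that of Hnrnpd. RefSeq entries were found for 29 of the 31 genes, with 41 promoters in all. The GC box was found in 82.9% of the 41, against 35.7% of all 32851 promoters of the same length. The CCAAT box was found in 51.2%, against 37.4%, and the ETS motif in 24.4%, against 8.9%. The NRF1 motif (GCGC, any base, TGCGC) was found in 19.5%, against 4.6%, and the TATA box (TATAAA) in 9.8%, against 13.6%. The cAMP response element (TGACGTCA), searched because activity genes such as Fos use it, was in none of the 41 in its full form, against 1.8%. The median GC content was 68.3% in the 41 and 52.7% over all promoters. Some genes have several entries with overlapping windows, so the 41 are not independent of each other. Of the 29 genes, 24 had a GC box, 17 a CCAAT box, 6 an ETS motif, 7 an NRF1 motif and 4 a TATA box. Both strands were searched and overlapping matches were allowed. A match describes letters in the window and does not show that a factor bound there.

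Total counts were 7356465 to 10327059 in Reactivated, 9705505 to 11120255 in Late, 6378949 to 9653364 in Early and 4838166 to 10255713 in Basal. Within Late, Early and Basal, libraries 1 and 2 lay much closer to each other than to library 3. A chi-square of the counts over genes came to 3.07 to 4.21 per degree of freedom for those 3 pairs, above sampling noise, and to 22.7 to 43.6 for all other pairs of a group. Rn45s, the ribosomal RNA precursor, took 18.8 to 27.7% of the counts in Reactivated, 27.9 to 36.5% in Late, 6.23 to 12.9% in Early and 4.72 to 12.2% in Basal, so that its share and the step to Late or Reactivated cannot be told apart. Lars2 took 3.54 to 4.61% in Reactivated, 0.309 to 0.922% in Late, 0.182 to 1.19% in Early and 0.201 to 0.790% in Basal. Malat1, a nuclear long non-coding RNA, took 2.97 to 4.22% in Reactivated, 3.74 to 4.79% in Late, 7.61 to 8.13% in Early and 6.16 to 7.93% in Basal. Summed normalized counts of 5 neuronal markers were 14815 to 17587 in Reactivated, 12234 to 12642 in Late, 13083 to 14906 in Early and 9792 to 11505 in Basal. The hippocampal subfields differed. The 8 granule cell markers summed to 1246 to 3037 in Reactivated, 1422 to 1553 in Late, 1967 to 2307 in Early and 8128 to 11635 in Basal, and 7 fell in Late against Basal. The 10 interneuron markers summed to 2950.3 to 3032 in Reactivated, 2556 to 2809 in Late, 2620.0 to 3767 in Early and 4609.7 to 5699.7 in Basal, and 5 fell in Late and 6 in Reactivated against Basal. The 7 CA1 markers summed to 2814 to 3426 in Reactivated, 2754 to 3119 in Late, 1975 to 2241 in Early and 657 to 1077 in Basal, and all 7 rose in Late against Basal. The 7 markers of CA3 and CA2 summed to 2328 to 2754 in Reactivated, 3503 to 4259 in Late, 2126 to 3550 in Early and 1016 to 1330 in Basal. Oligodendrocyte markers summed to 2794 to 7399 in Reactivated, 4685 to 9921 in Late, 1586 to 1988 in Early and 1826 to 2340 in Basal, with 3 rising and 3 falling of 6 tested in Late against Basal. The 6 astrocyte markers summed to 1019.5 to 2221 in Reactivated, 1560.4 to 3108 in Late, 489 to 775 in Early and 552 to 916 in Basal, and 1 rose in Late and 2 in Reactivated against Basal. Microglial markers summed to 821 to 2104 in Reactivated, 5649 to 9738 in Late, 622 to 778 in Early and 674 to 789 in Basal. Of 5 tested microglial markers, 2 rose and 2 fell in Late against Basal, and 2 rose and 0 fell in Reactivated against Basal. The 4 oligodendrocyte precursor markers summed to 104 to 286 in Reactivated and 32.4 to 42.3 in Late. In Early they summed to 66.8 to 93.5 and in Basal to 66.0 to 123. Against Basal 3 fell in Late and 1 rose in Reactivated. The 5 blood vessel markers summed to 76.4 to 178 in Reactivated and 30.4 to 45.8 in Late. In Early they summed to 57.4 to 75.2 and in Basal to 72.5 to 323. Of 4 tested, 2 fell in Late and 1 fell in Reactivated. The part of these differences in the values below was not tested, and in such bulk libraries fewer cells of a type and less RNA per cell cannot be told apart.

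All 31 genes passed the filter of at least 10 counts in at least 3 libraries, which left 15668 genes for testing. They were well covered. The lowest count was 18, for Hnrnpa1 in Reactivated 1. The median of their mean normalized counts was 649, against 124 over all genes tested. A normalized count is a count divided by the library's TMM effective size relative to the geometric mean of all libraries. The quasi-likelihood test of edgeR with Benjamini-Hochberg adjustment over all genes tested, at a threshold of 0.05, was used throughout. Under it 24 of the 31 genes (77.4%) differed among the 4 groups, where 58.6% of all genes tested did. Of the hnRNP genes 18 of 20 differed, and of the SR genes 6 of 11. Among the 24, the highest mean was in Reactivated for 4 genes, in Late for 8, in Early for 2 and in Basal for 10. The lowest mean among the 24 was in Reactivated for 7 genes, in Late for 8, in Early for 3 and in Basal for 6. In the map of levels, some genes were highest in Late, others were lowest there and the rest were neither. Early lay close to Basal.

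**Figure D1:**
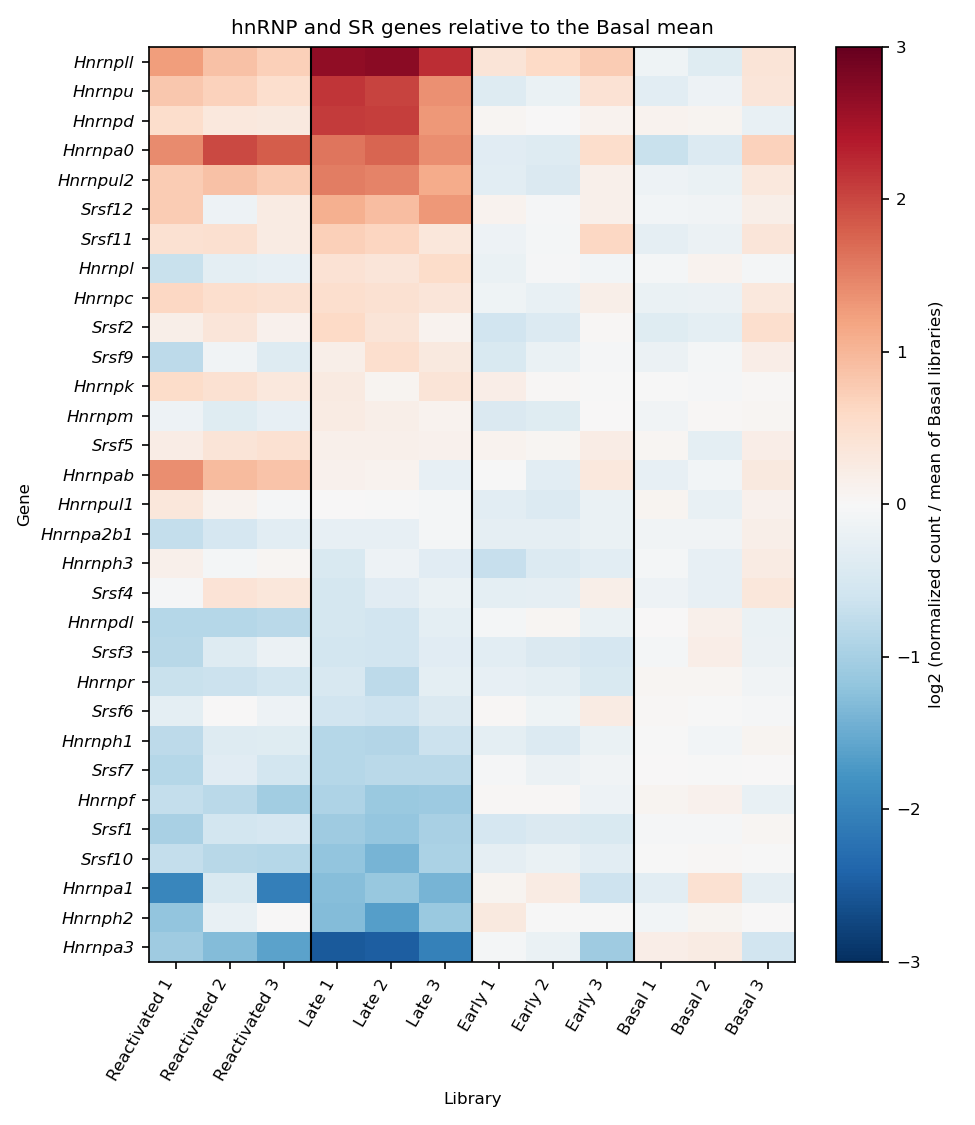
Log2 of the normalized count of each of the 31 genes over its mean in Basal, with 1 column for each library, grouped as Reactivated, Late, Early and Basal, and 1 row for each gene, ordered by the fold change of Late against Basal. Hnrnpll (log2 fold change 2.54) and Hnrnpa3 (-2.31) stand at opposite ends of the order, and no gene passed the test in Early against Basal without a block for the replicate number.

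The comparison of Late with Basal asks how nuclei sorted days after conditioning, as the title is read, differ from Basal nuclei. In Late, 9 of the 31 genes rose and 12 fell, where 25.4% of all genes tested rose and 23.6% fell, together 49.1%. Of the hnRNP genes 7 rose and 7 fell, and of the SR genes 2 rose and 5 fell. Late and Basal libraries were fully apart in 22 of the 31 genes and in 62.5% of all genes tested. The median log2 fold change was -0.02, against -0.03 over all genes tested. Hnrnpll, Hnrnpd, Hnrnpu, Hnrnpul2, Hnrnpa0 and Srsf12 rose more than the others. Hnrnpa3, Hnrnph2, Hnrnpa1, Srsf10, Srsf1 and Hnrnpf fell more than the others. The split depended on the scaling. It was 6 higher and 15 lower with upper quartile scaling, where 3016 of all 15668 genes tested rose and 5114 fell. It was 5 and 23 with library totals alone, where 1401 of all genes rose and 9062 fell, with their median at -0.87. It was 10 higher and 8 lower with a correction for GC content, which was chosen after seeing the data. With the Rn45s share as a covariate 1 of the 31 genes passed, where 205 of all 15668 genes tested did. The standard errors of the 31 genes were 2.38 times as large at the median. The calls of 12 genes stood in every alternative other than library totals, unscaled values and that covariate, namely Hnrnpa0, Hnrnpa3, Hnrnpd, Hnrnpf, Hnrnph2, Hnrnpll, Hnrnpu, Hnrnpul2, Srsf1, Srsf7, Srsf10 and Srsf12.

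Reactivated nuclei, by title those of mice that met the cue again, were also set against Basal. In Reactivated against Basal, 7 genes rose and 11 fell, where 20.6% of all genes tested rose and 18.8% fell, together 39.4%. All 7 that rose were hnRNP genes, and those that fell were 8 hnRNP genes and the SR genes Srsf1, Srsf7 and Srsf10. The libraries did not overlap in 21 of the 31 genes and in 45.8% of all genes tested. The median was -0.14, against 0.02 over all genes tested. The split was 5 higher and 14 lower with upper quartile scaling, where 2666 of all genes rose and 3567 fell. It was 3 and 16 with library totals, where 1240 of all genes rose and 5833 fell (median of all genes -0.46). With the GC correction it was 9 and 6. With the values unscaled 3 of the 31 genes passed, where 2264 of all 15668 genes tested did. With the Rn45s share as a covariate 0 passed, where 625 of all genes did. Outside these settings and library totals, 8 calls stood throughout, those of Hnrnpa0, Hnrnpa3, Hnrnpab, Hnrnpdl, Hnrnpf, Hnrnpll, Hnrnpul2 and Srsf10.

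Reactivated against Late asks, as the titles are read, what differs after the cue. The labels do not say whether the sorting gates of these groups differed. Here 4 genes rose, namely Hnrnpab, Hnrnpa3, Hnrnph2 and Srsf6. A further 8 fell, namely Hnrnpd, Hnrnpll, Hnrnpu, Hnrnpl, Hnrnpul2, Hnrnpm, Srsf12 and Srsf9. Of all genes tested 10.3% rose and 12.3% fell, together 22.6%. The libraries did not overlap in 17 of the 31 genes and in 39.7% of all genes tested. The median was 0.08, against 0.03 over all genes tested. The split was 8 higher and 6 lower with upper quartile scaling, where 2260 of all genes rose and 1590 fell. It was 15 and 3 with library totals, where 3881 of all genes rose and 1091 fell, with their median at 0.38. It was 3 and 2 with unscaled values, where 877 of all genes rose and 869 fell, and 7 and 7 with the GC correction. Without Late 2 the count was 6. The 3 calls that stood in all 24 alternatives were those of Hnrnpab, Hnrnpd and Hnrnpll. With the Rn45s share as a covariate 5 of the 31 genes passed, where 1860 of all 15668 genes tested did. Outside library totals, unscaled values and that covariate, the calls of Hnrnpl, Hnrnpu and Srsf12 stood as well.

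Early against Basal gave 0 calls among the 31 genes, where 6.03% of all genes tested passed, 3.36% rising and 2.66% falling. At an unadjusted p under 0.05 there were 7, Hnrnpll higher and 6 lower, and DESeq2 called 1, which fell. Same-numbered Early and Basal libraries deviated together. With the libraries of both groups alone and a block for the replicate number, 7 of the 31 genes passed, where 17.3% of all genes tested passed, 9.24% rising and 8.11% falling. In that fit Hnrnpll rose (0.59, adjusted p = 0.00533), and Srsf1 (-0.48, adjusted p = 0.00149), Srsf3 (-0.42, adjusted p = 0.0147), Hnrnpa3 (-0.41, adjusted p = 0.0111), Hnrnph1, Hnrnpr and Hnrnpul1 fell. Without the block the lowest adjusted p was that of Srsf1, with 905, 1209 and 1256 in Reactivated, 849, 802 and 911 in Late, 1249, 1316 and 1298 in Early and 1753, 1734 and 1864 in Basal (log2 fold change -0.47 ± 0.14, adjusted p = 0.0579). Hnrnpll was called without Basal 3 (0.82, adjusted p = 0.0247), and Srsf1 without Reactivated 1 (-0.47, adjusted p = 0.0199). The libraries did not overlap in 8 of the 31 genes, against 23.4% of all genes tested. Every Early library lay below every Basal one in 8 of the 31 genes and in 11.5% of all genes tested, and above in 0 of the 31 and in 11.9%. These 8 were Hnrnpa2b1, Hnrnph1, Hnrnph3, Hnrnpr, Srsf1, Srsf10, Srsf3 and Srsf7.

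Late was also set against Early, the earlier collection after conditioning. There 11 genes rose and 10 fell, where 22% and 20.4% of all genes tested did, together 42.3%. The libraries did not overlap in 22 of the 31 genes and in 59.9% of all genes tested. The split was 6 higher and 11 lower with upper quartile scaling, where 2482 of all genes rose and 4637 fell. It was 5 and 20 with library totals, where 1208 of all genes rose and 8601 fell (median of all genes -0.78). It was 5 and 8 with unscaled values, where 1087 of all genes rose and 3582 fell, and 11 and 6 with the GC correction. With the Rn45s share as a covariate 0 of the 31 genes passed in either comparison with Early. Of all genes tested 94 passed there for Late and 0 for Reactivated. In Reactivated against Early 7 rose and 6 fell, where 13.5% and 12.7% did, together 26.2%, and the libraries did not overlap in 19 of the 31 and in 39.1% of all genes tested. This count was 6 without Early 1, 5 without Early 2, 7 without Reactivated 1 and 8 when only these groups were fitted. The split was 4 higher and 6 lower with upper quartile scaling, where 1659 of all genes rose and 2502 fell. It was 3 and 15 with library totals, where 719 of all genes rose and 4284 fell (median of all genes -0.37). It was 1 and 3 with unscaled values, where 343 of all genes rose and 1241 fell, and 10 and 3 with the GC correction. Comparisons that share a group share its libraries, so their values are given side by side below and not as independent of each other.

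**Figure D2:**
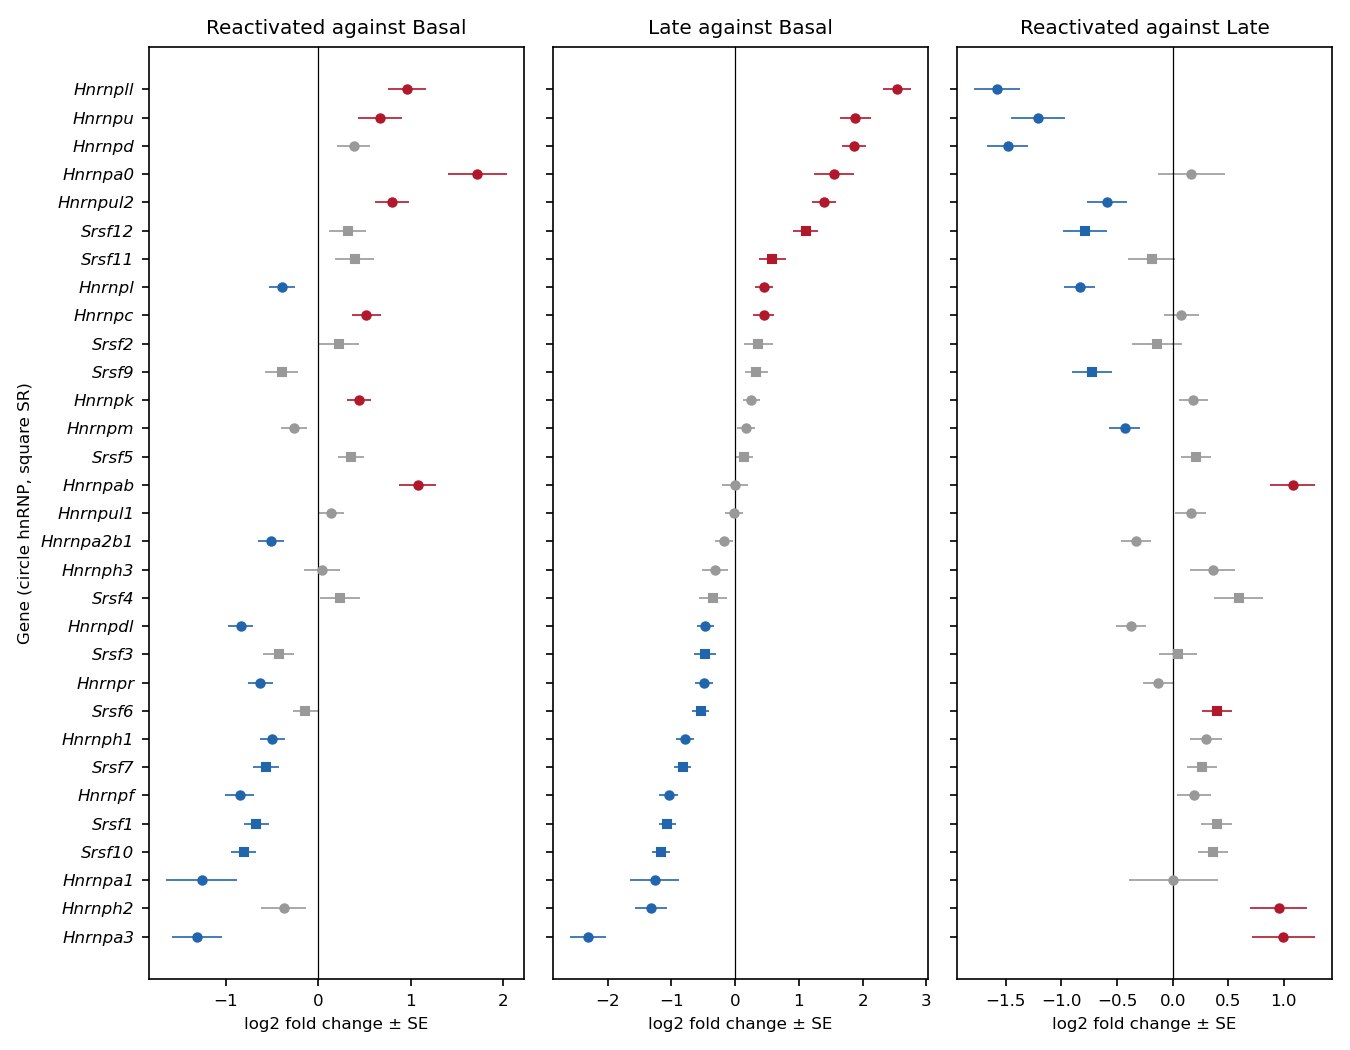
Log2 fold change ± SE of each gene in Reactivated against Basal, Late against Basal and Reactivated against Late, with hnRNP genes as circles and SR genes as squares. Red points rose and blue points fell at the threshold, and grey points did not pass. In Late against Basal the points reach from -2.31 (Hnrnpa3) to 2.54 (Hnrnpll).

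The U-type genes encode large nuclear proteins that bind RNA and chromatin. Hnrnpu, also called scaffold attachment factor A, holds RNA on chromatin. Normalized counts of Hnrnpu in libraries 1, 2 and 3 were 8699.6, 7963 and 6998 in Reactivated, 21728, 20307 and 12817 in Late, 3814, 4349 and 6652 in Early and 4002, 4473 and 6386 in Basal. The Late libraries lay above all others, and Late 3 was the lowest of them. Hnrnpu rose 3.69-fold in Late against Basal (log2 fold change 1.88 ± 0.25, adjusted p = 2.76e-05). It was lower in Reactivated than in Late (log2 fold change -1.21 ± 0.24, adjusted p = 0.00218). Reactivated lay between, at 0.67 ± 0.24 against Basal (adjusted p = 0.0376). That call was lost on leaving out any of Basal 1, Basal 2, Reactivated 1 or Reactivated 2 (log2 fold changes 0.53 to 0.66, adjusted p = 0.0745 to 0.142), and the like call against Early (0.68) was lost on leaving out any of Basal 1, Basal 2, Early 1, Early 2, Late 1, Late 2, Reactivated 1, Reactivated 2 or Reactivated 3 (log2 fold changes 0.52 to 0.75, adjusted p = 0.0506 to 0.195). Both calls were also lost with upper quartile scaling, library totals and unscaled values, and that against Early with only the compared groups fitted.

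Hnrnpu took a large part of the reads of the 31 genes. Its share of their summed counts was 21.3 to 25.6% in Reactivated, 31.1 to 40.8% in Late, 13.9 to 19.6% in Early and 13.5 to 18.1% in Basal. Without Hnrnpu the summed normalized count of the other genes was 25930.4 ± 690 in Reactivated, 30178 ± 1577 in Late, 24859 ± 2058 in Early and 26719 ± 1868 in Basal (SD, n = 3 each). Within groups the order of the share was near that of Rn45s but not the same. Reactivated 1, Early 3 and Basal 3 had the highest values of both in their groups, and Late 3 had the lowest of both. Late 2, with the most Rn45s (36.5%), had a lower Hnrnpu share (39.9%) than Late 1 (40.8%), and Reactivated 2, with the least Rn45s of its group (18.8%), had a higher one (23.0%) than Reactivated 3 (21.3%). With the Rn45s share as a covariate, the log2 fold change of Hnrnpu in Late against Basal was 0.029, adjusted p = 0.983. It turned sign in Reactivated against Basal (-0.36, adjusted p = 0.431) and against Early (-0.27, adjusted p = 0.681). An exon of Cox20 overlaps Hnrnpu on the opposite strand, and whether the counting used strand is not given in the sources used here.

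**Figure D3:**
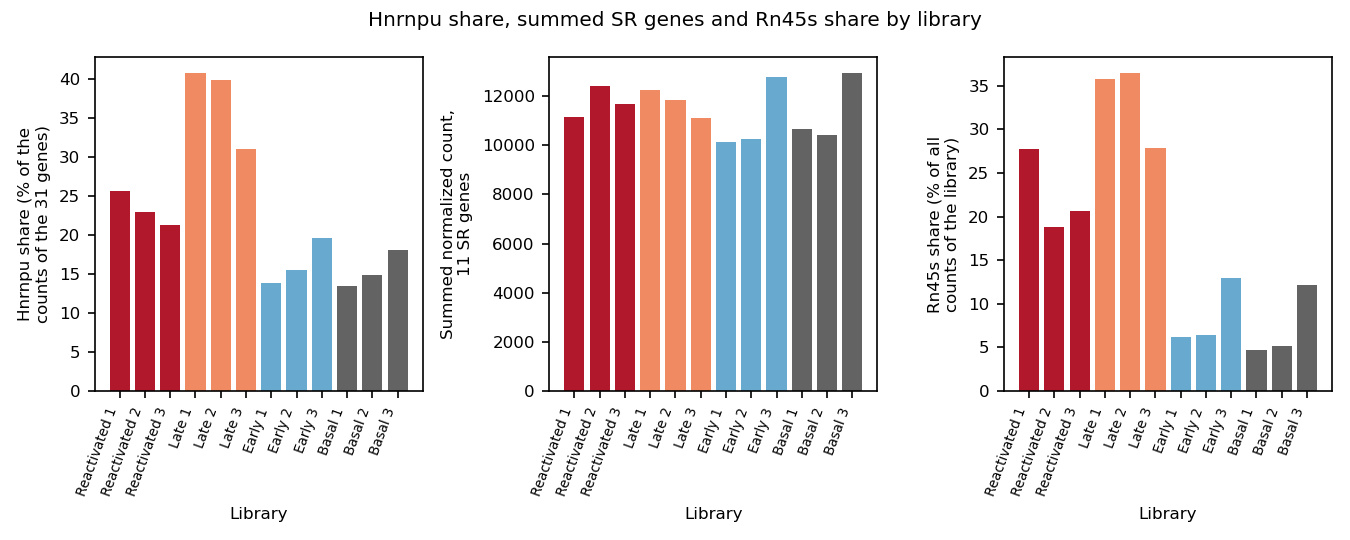
Share of Hnrnpu in the summed counts of the 31 genes, summed normalized counts of the 11 SR genes and share of Rn45s in all counts of a library, in percent, normalized counts and percent. Each library of Reactivated, Late, Early and Basal is drawn separately (n = 3 per group). The Hnrnpu and Rn45s shares are highest in Late, while the SR sums of the 4 groups overlap.

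Hnrnpul2, a relative of Hnrnpu linked to the DNA damage response in human cells, had normalized counts of 1419, 1548 and 1440.5 in Reactivated, 2448, 2365 and 1820.0 in Late, 682, 624 and 935 in Early and 755, 732 and 1042 in Basal. All Reactivated and Late libraries lay above all Early and Basal ones. It rose in Late (log2 fold change 1.39 ± 0.18, adjusted p = 3.34e-05) and in Reactivated (log2 fold change 0.80 ± 0.18, adjusted p = 0.00384) against Basal, and it was lower in Reactivated than in Late (log2 fold change -0.59 ± 0.18, adjusted p = 0.0307). The last call was lost on leaving out any of Late 1, Late 2, Reactivated 1, Reactivated 2 or Reactivated 3 (log2 fold changes -0.51 to -0.63, adjusted p = 0.0531 to 0.121), and with upper quartile scaling (-0.47, adjusted p = 0.0507). Hnrnpul1, the other relative, ran at 629.7 to 809.5 in Reactivated, 620.1 to 644 in Late, 482 to 564 in Early and 549 to 703 in Basal. It passed in Reactivated against Early (log2 fold change 0.45 ± 0.14, adjusted p = 0.0295), and that was lost on leaving out any of Early 1, Early 2, Reactivated 1 or Reactivated 2 (log2 fold changes 0.35 to 0.47, adjusted p = 0.0512 to 0.12).

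The D-type genes encode proteins that bind AU-rich elements and steer mRNA decay. Hnrnpd, also known as AUF1, had normalized counts of 1004, 879.9 and 861 in Reactivated, 2979.5, 2955 and 1739.7 in Late, 735, 709.9 and 753 in Early and 759, 742 and 603 in Basal. The Late libraries stood above all others without overlap, with Late 3 nearest to them. Hnrnpd rose 3.65-fold in Late against Basal (log2 fold change 1.87 ± 0.19, adjusted p = 2.86e-06) and 3.49-fold against Early (log2 fold change 1.80 ± 0.19, adjusted p = 5.05e-06). In Reactivated it was 2.80-fold lower than in Late (log2 fold change -1.48 ± 0.18, adjusted p = 4.93e-05), and against Basal the log2 fold change was 0.38 ± 0.18 (adjusted p = 0.11). Its closest relative Hnrnpdl did not share that pattern. Hnrnpdl ran at 985 to 1022 in Reactivated, 1192 to 1446 in Late, 1548 to 1857 in Early and 1562 to 1996 in Basal, and the Reactivated libraries were below all others. It fell in Reactivated (log2 fold change -0.84 ± 0.14, adjusted p = 0.000438) and in Late (log2 fold change -0.47 ± 0.14, adjusted p = 0.0105) against Basal. The call in Late was lost without Basal 2 (-0.38, adjusted p = 0.0557) or without Late 2 (-0.41, adjusted p = 0.0535).

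The L-type genes encode proteins that bind CA-rich sequences. Hnrnpll, known for the switch of CD45 isoforms in activated T cells, had normalized counts of 763, 590.4 and 528 in Reactivated, 2026, 2098 and 1482 in Late, 416, 481 and 539.5 in Early and 294, 248 and 417 in Basal. Every Late library was above every other library, Reactivated overlapped Early, and Basal 3 reached into the range of Early. Hnrnpll rose 5.82-fold in Late against Basal (log2 fold change 2.54 ± 0.21, adjusted p = 6.78e-07) and 1.95-fold in Reactivated against Basal (log2 fold change 0.96 ± 0.21, adjusted p = 0.0027). It was 2.98-fold lower in Reactivated than in Late (log2 fold change -1.58 ± 0.21, adjusted p = 7.46e-05). Hnrnpl had normalized counts of 504, 658 and 686 in Reactivated, 1083, 1046 and 1178 in Late, 698, 792 and 768 in Early and 779, 863 and 779 in Basal. Every Late library was above and every Reactivated library below all others. Hnrnpl rose in Late against Basal (log2 fold change 0.45 ± 0.14, adjusted p = 0.0141) and against Early (log2 fold change 0.55 ± 0.14, adjusted p = 0.00534), and it was lower in Reactivated than in Late (log2 fold change -0.84 ± 0.14, adjusted p = 0.000523). It fell in Reactivated against Basal (log2 fold change -0.39 ± 0.14, adjusted p = 0.0377). That last call was lost on leaving out any of Basal 1, Basal 2, Late 1, Late 2 or Reactivated 1 (log2 fold changes -0.26 to -0.42, adjusted p = 0.0511 to 0.129). The rise against Basal was lost without Basal 1 (0.39, adjusted p = 0.068), and with library totals Hnrnpl turned to -0.39 (0.48 relative to the median of all genes, adjusted p = 0.0764) there and -0.20 (0.58 relative to the median of all genes, adjusted p = 0.365) against Early. Upper quartile scaling (0.22, adjusted p = 0.202) and the GC correction (0.23, adjusted p = 0.181) also ended it against Basal.

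**Figure D4:**
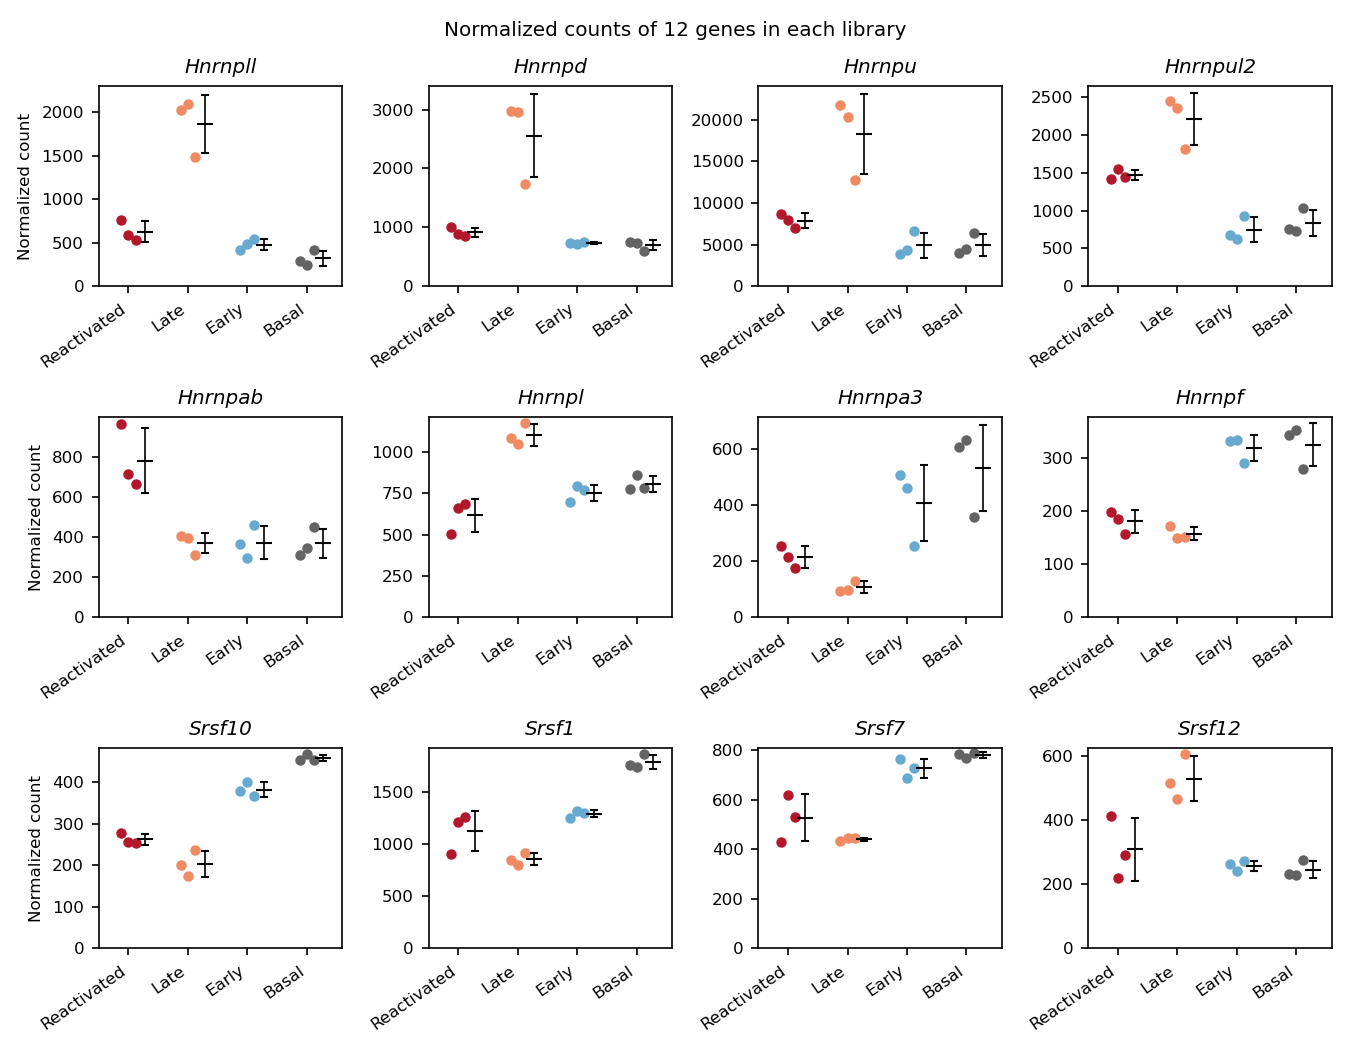
Normalized counts of 12 genes in each library, with points for libraries of Reactivated, Late, Early and Basal and bars for the mean ± SD (n = 3). Hnrnpll, Hnrnpd, Hnrnpu, Hnrnpul2, Hnrnpl and Srsf12 are highest in Late, Hnrnpab is highest in Reactivated, and Hnrnpa3, Hnrnpf, Srsf10, Srsf1 and Srsf7 are lowest in Late.

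The A and B types are exon silencers that oppose SR proteins at many splice sites, and they differed in direction. Hnrnpa3 had normalized counts of 255, 215 and 174 in Reactivated, 92.5, 96.4 and 131 in Late, 508, 461 and 255 in Early and 609, 631 and 357 in Basal. Every Late library was below every other library, and the highest of Reactivated met the lowest of Early. Hnrnpa3 was 4.95-fold lower in Late than in Basal (log2 fold change -2.31 ± 0.28, adjusted p = 1.59e-05) and 2.48-fold lower in Reactivated than in Basal (log2 fold change -1.31 ± 0.27, adjusted p = 0.00191). It was higher in Reactivated than in Late (log2 fold change 0.99 ± 0.28, adjusted p = 0.0201), a call that was lost on leaving out any of Late 1, Late 2 or Reactivated 1 (log2 fold changes 0.86 to 0.93, adjusted p = 0.0581 to 0.0855). Hnrnpa0 went the other way, with 292 to 433 in Reactivated, 290.4 to 369.9 in Late, 84.2 to 159.5 in Early and 68.7 to 178 in Basal. It rose in Reactivated (log2 fold change 1.72 ± 0.32, adjusted p = 0.00101) and in Late (log2 fold change 1.55 ± 0.32, adjusted p = 0.00106) against Basal. The coding sequence of Hnrnpa0 lies in a single exon.

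Hnrnpa1, the best studied exon silencer, ran at 23.1 to 69.5 in Reactivated, 36.4 to 43.6 in Late, 62.6 to 115 in Early and 76.4 to 131 in Basal. It was 2.40-fold lower in Late than in Basal (log2 fold change -1.26 ± 0.39, adjusted p = 0.0149). The call was lost without Basal 2 (-0.97, adjusted p = 0.0788) or without Late 3 (-1.20, adjusted p = 0.051), and its fall in Reactivated (log2 fold change -1.26 ± 0.39, adjusted p = 0.0186) was lost on leaving out any of Basal 2, Reactivated 1 or Reactivated 3 (log2 fold changes -0.97 to -1.04, adjusted p = 0.0572 to 0.0963). Many processed pseudogenes resemble Hnrnpa1, so reads could be split between copies, and the value is uncertain for that. Hnrnpa2b1, which binds RNA at sites that carry N6-methyladenosine among others, passed in Reactivated against Basal only, where it fell (log2 fold change -0.51 ± 0.14, adjusted p = 0.00972). It ran at 1297 to 1697 in Reactivated, 1794 to 2056 in Late, 1763 to 1858 in Early and 1985 to 2409.7 in Basal, and with the GC correction the call was lost (-0.26, adjusted p = 0.178).

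Hnrnpab, known as CBF-A, binds trafficking elements of mRNA that travels into dendrites. Its normalized counts were 964, 712 and 663 in Reactivated, 402, 394 and 312 in Late, 363, 293 and 458 in Early and 308, 347 and 448 in Basal. The Reactivated libraries were above every other library, and Late, Early and Basal overlapped. Hnrnpab rose in Reactivated against Late (log2 fold change 1.08 ± 0.20, adjusted p = 0.00141), against Early (log2 fold change 1.07 ± 0.20, adjusted p = 0.00285) and against Basal (log2 fold change 1.08 ± 0.20, adjusted p = 0.00111). Late and Basal had means of 369 ± 49.9 and 368 ± 72.0 (SD, n = 3 each, adjusted p = 0.999). With the Rn45s share as a covariate Hnrnpab kept its call against Late (1.69, adjusted p = 6.44e-05), lost it against Basal (0.23, adjusted p = 0.604) and against Early (0.28, adjusted p = 0.635), and was lower in Late than in Basal (-1.46, adjusted p = 0.0495). With unscaled values it was also lost against Basal (0.95, adjusted p = 0.0637) and Early (0.77, adjusted p = 0.174). An exon of Phykpl overlaps Hnrnpab on the opposite strand. Exons of other genes also overlap Hnrnpd, Hnrnpf, Hnrnph3, Hnrnpk, Hnrnpl, Hnrnpr, Srsf1 and Srsf4 on the opposite strand. On the same strand they overlap Hnrnpa3, Hnrnpm and Hnrnpul2.

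Of the remaining hnRNP genes, Hnrnpc encodes proteins that form the core particle and bind U tracts, also those of Alu elements in human cells. It ran at 815 to 917 in Reactivated, 770.4 to 850.3 in Late, 512 to 678 in Early and 519 to 743 in Basal and rose in Reactivated (log2 fold change 0.52 ± 0.16, adjusted p = 0.0185) and in Late (log2 fold change 0.44 ± 0.16, adjusted p = 0.0313) against Basal. The call in Late was lost on leaving out any of Basal 1, Basal 2, Late 1 or Late 2 (log2 fold changes 0.32 to 0.44, adjusted p = 0.0754 to 0.154), and with library totals it turned to -0.39 (0.48 relative to the median of all genes, adjusted p = 0.0249). Upper quartile scaling and unscaled values also ended it. The call in Reactivated was lost without Basal 1 (0.42, adjusted p = 0.0816) or without Basal 2 (0.44, adjusted p = 0.0846). Library totals, unscaled values and a fit of only the compared groups ended it too. Hnrnpk, which binds runs of C, rose in Reactivated against Basal (log2 fold change 0.44 ± 0.13, adjusted p = 0.0148). With library totals Hnrnpk turned to -0.05 (0.41 relative to the median of all genes, adjusted p = 0.838) there and to -0.039 (0.33 relative to the median of all genes, adjusted p = 0.886) against Early, and the call against Basal was lost without Basal 1 (0.42, adjusted p = 0.0525) or without Basal 2 (0.43, adjusted p = 0.0509). Its call in Reactivated against Early (0.37) was lost on leaving out any of Basal 1, Basal 2, Early 1, Early 2, Early 3, Late 1, Late 2, Reactivated 1 or Reactivated 2 (log2 fold changes 0.31 to 0.43, adjusted p = 0.0556 to 0.143). Upper quartile scaling, unscaled values and a fit of only the compared groups ended both Hnrnpk calls. Hnrnpr, a relative of Syncrip linked to the transport of mRNA into axons, ran at 514 to 558 in Reactivated, 481 to 675 in Late, 604 to 692 in Early and 763 to 853 in Basal. It fell in Reactivated (log2 fold change -0.62 ± 0.14, adjusted p = 0.00331) and in Late (log2 fold change -0.49 ± 0.14, adjusted p = 0.0091) against Basal, the call in Late being lost without Late 2 (-0.37, adjusted p = 0.0579). With the GC correction Hnrnpr was at -0.19, adjusted p = 0.199 in Late and -0.28, adjusted p = 0.0825 in Reactivated.

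Hnrnpm, which binds GU-rich sequence, had normalized counts of 1834, 1585 and 1734 in Reactivated, 2427, 2312 and 2213 in Late, 1517, 1586 and 2082 in Early and 1912, 2118 and 2128 in Basal. Every Late library was above every other library. It rose in Late against Early (log2 fold change 0.42 ± 0.14, adjusted p = 0.0243), turning to -0.32 (0.46 relative to the median of all genes, adjusted p = 0.0453) with library totals and to -0.024, adjusted p = 0.969 with unscaled values, and was lower in Reactivated than in Late (log2 fold change -0.43 ± 0.14, adjusted p = 0.0372). Neither call was firm, since the rise was lost on leaving out any of Early 1, Early 2, Late 1 or Late 2 (log2 fold changes 0.34 to 0.43, adjusted p = 0.0623 to 0.114) and the fall on leaving out any of Basal 1, Late 1, Late 2, Late 3, Reactivated 2 or Reactivated 3 (log2 fold changes -0.38 to -0.47, adjusted p = 0.0543 to 0.124).

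The F and H types bind runs of G and act as enhancers or silencers by position. Hnrnpf had normalized counts of 198, 185 and 157 in Reactivated, 171, 149 and 151 in Late, 332, 333 and 289.8 in Early and 343, 352 and 278 in Basal. All Reactivated and Late libraries were below all Early and Basal ones. It fell 2.06-fold in Late (log2 fold change -1.04 ± 0.15, adjusted p = 7.71e-05) and 1.80-fold in Reactivated (log2 fold change -0.85 ± 0.15, adjusted p = 0.000815) against Basal. Hnrnph2, which encodes a close relative of the H1 protein, had normalized counts of 84.0, 163 and 192 in Reactivated, 78.1, 60.8 and 88.7 in Late, 235, 189 and 191 in Early and 181, 201 and 192 in Basal. Late was below Early and Basal in every library, Reactivated 1 lay within the range of Late, and Reactivated 2 and 3 did not. Hnrnph2 fell 2.50-fold in Late against Basal (log2 fold change -1.32 ± 0.25, adjusted p = 0.000629) and was higher in Reactivated than in Late (log2 fold change 0.95 ± 0.25, adjusted p = 0.0144). The last call was lost without Late 2 (0.82, adjusted p = 0.0755) or without Reactivated 3 (0.71, adjusted p = 0.0691).

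Hnrnph1 ran at 1439 to 1923 in Reactivated, 1330.3 to 1573 in Late, 1846 to 2147 in Early and 2340.2 to 2626 in Basal, and each Late library was below each Early and each Basal one. Hnrnph1 fell in Late (log2 fold change -0.79 ± 0.14, adjusted p = 0.000361) and in Reactivated (log2 fold change -0.49 ± 0.14, adjusted p = 0.0131) against Basal. With the GC correction both were lost, at -0.36, adjusted p = 0.0848 and -0.043, adjusted p = 0.863. Hnrnph3 ran at 91.5 to 106 in Reactivated, 69.7 to 85.9 in Late, 58.5 to 76.8 in Early and 80.8 to 113 in Basal and passed in none of the 6 comparisons. Its log2 fold changes lay between -0.47 in Early against Basal and 0.51 in Reactivated against Early.

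Summed over the 11 SR genes, the 4 groups did not separate. The normalized counts summed to 11729 ± 637 in Reactivated, 11739.6 ± 575 in Late, 11048 ± 1490.1 in Early and 11338 ± 1394 in Basal (SD, n = 3 each), and the ranges of all groups overlapped. The sum leans on Srsf11 and Srsf5, with the largest means (4555 and 2604 in Late, 3037 and 2353 in Basal). Neither passed the test among the 4 groups, while 6 of the 11 SR genes did, in differing directions. Srsf1, the prototype of the family, helps choose the nearer 5′ splice site and has roles in export, translation and decay. Its Late libraries were 849, 802 and 911 and its Basal libraries 1753, 1734 and 1864, with Early between and Reactivated 1 within the range of Late. Srsf1 was 2.09-fold lower in Late than in Basal (log2 fold change -1.06 ± 0.14, adjusted p = 2.69e-05) and 1.59-fold lower in Reactivated than in Basal (log2 fold change -0.67 ± 0.14, adjusted p = 0.00199). With the GC correction the call in Reactivated was lost (-0.32, adjusted p = 0.0987). Srsf9, its closest relative, had normalized counts of 259, 417 and 340.1 in Reactivated, 506, 635 and 543 in Late, 325, 388 and 436 in Early and 396, 429.9 and 512 in Basal. Every Late library was above every Reactivated and Early library. Srsf9 was lower in Reactivated than in Late (log2 fold change -0.72 ± 0.18, adjusted p = 0.0103), lost without Late 2 (-0.63, adjusted p = 0.0571), and it rose in Late against Early (log2 fold change 0.55 ± 0.18, adjusted p = 0.024), turning to -0.20 (0.58 relative to the median of all genes, adjusted p = 0.39) with library totals. The rise was lost on leaving out any of Early 1, Early 2 or Late 2 (log2 fold changes 0.45 to 0.56, adjusted p = 0.0628 to 0.106). Against Basal its log2 fold change in Late was 0.33 ± 0.18 (adjusted p = 0.145).

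Srsf10, which represses splicing when it loses its phosphate groups, for example in heat shock and mitosis, had normalized counts of 278, 256 and 255 in Reactivated, 201, 174 and 236 in Late, 379.9, 402 and 367 in Early and 453, 468 and 455 in Basal. Basal was highest in every library, Early came next and every Late library was below every Reactivated one. Srsf10 was 2.25-fold lower in Late than in Basal (log2 fold change -1.17 ± 0.14, adjusted p = 1.13e-05) and 1.75-fold lower in Reactivated than in Basal (log2 fold change -0.80 ± 0.14, adjusted p = 0.000558). Its relative Srsf12, formerly called SRrp35, went the other way. Normalized counts of Srsf12 were 413, 219 and 291 in Reactivated, 515, 466 and 604 in Late, 262, 240.1 and 271 in Early and 231, 228 and 275 in Basal, and all Late libraries lay above all others. Srsf12 was 2.16-fold higher in Late than in Basal (log2 fold change 1.11 ± 0.20, adjusted p = 0.000353) and was lower in Reactivated than in Late (log2 fold change -0.79 ± 0.20, adjusted p = 0.00944). Reactivated against Basal gave 0.32 ± 0.20 (adjusted p = 0.211).

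Srsf3 and Srsf7 are small SR proteins that link splicing to export through NXF1 and shape the choice of polyadenylation site. Srsf7 ran at 429.5 to 619 in Reactivated, 431 to 444 in Late, 688 to 763 in Early and 767 to 787 in Basal, with each Late library below each Early and each Basal library. It was 1.77-fold lower in Late than in Basal (log2 fold change -0.83 ± 0.14, adjusted p = 0.000218) and 1.48-fold lower in Reactivated than in Basal (log2 fold change -0.56 ± 0.14, adjusted p = 0.00547). With the GC correction the call in Reactivated was lost (-0.24, adjusted p = 0.204). Srsf3 ran at 286 to 455 in Reactivated, 345 to 404 in Late, 357 to 408 in Early and 454 to 585 in Basal and fell in Late against Basal (log2 fold change -0.47 ± 0.17, adjusted p = 0.0301), a call lost on leaving out any of Basal 2, Late 1 or Late 2 (log2 fold changes -0.36 to -0.44, adjusted p = 0.0968 to 0.129) and with the GC correction (-0.17, adjusted p = 0.386).

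Srsf4, Srsf5 and Srsf6 are close relatives with a longer tail of repeats. Srsf6 had normalized counts of 741, 913 and 816 in Reactivated, 608, 589 and 673 in Late, 934, 835 and 1075 in Early and 933, 893 and 891 in Basal. Each Late library lay below every other library. Srsf6 fell in Late against Basal (log2 fold change -0.54 ± 0.14, adjusted p = 0.00434) and against Early (log2 fold change -0.60 ± 0.14, adjusted p = 0.00254), and it was higher in Reactivated than in Late (log2 fold change 0.40 ± 0.14, adjusted p = 0.0443). The last call was lost on leaving out any of Basal 2, Early 1, Late 1, Late 2, Late 3, Reactivated 2 or Reactivated 3 (log2 fold changes 0.32 to 0.46, adjusted p = 0.0522 to 0.156), and the call against Basal with the GC correction (-0.31, adjusted p = 0.0984). Srsf4, with 110.1 to 149.6 in Reactivated, 78.1 to 99.0 in Late, 92.9 to 127 in Early and 95.4 to 143 in Basal, and Srsf5, with 2736 to 3209.6 in Reactivated, 2583 to 2630.0 in Late, 2455 to 2729 in Early and 1913 to 2684 in Basal, passed in none of the 6 comparisons. In Reactivated against Basal the log2 fold change of Srsf4 was 0.24 ± 0.21 and that of Srsf5 0.36 ± 0.14.

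Srsf2, also called SC35, marks nuclear speckles, and Srsf11 is a relative known from the p54 protein. Srsf2 ran at 779 to 909 in Reactivated, 755 to 1064 in Late, 476 to 726 in Early and 545 to 997 in Basal and rose in Late against Early (log2 fold change 0.66 ± 0.23, adjusted p = 0.0281). That was lost on leaving out any of Early 1, Early 2, Late 1 or Late 2 (log2 fold changes 0.54 to 0.65, adjusted p = 0.0705 to 0.118), and with library totals it turned to -0.09 (0.69 relative to the median of all genes, adjusted p = 0.672). Without Basal 3, Early 3 and Late 3 together, a setting chosen after seeing the data, Srsf2 also passed in Late against Basal (0.83, adjusted p = 0.000445). That fit keeps only libraries 1 and 2 of these groups, which lay much closer to each other than to library 3. Its p-value can be too small for that. Of the libraries left out, Basal 3 (997) lay above Late 3 (755). Exons of Mettl23 and Mfsd11 overlap Srsf2 on the opposite strand. Srsf11 ran at 3589 to 4216 in Reactivated, 3866 to 5025 in Late, 2716 to 4656 in Early and 2529 to 3877 in Basal and rose in Late against Basal (log2 fold change 0.58 ± 0.21, adjusted p = 0.0318). The call was lost on leaving out any of Basal 1, Basal 2, Late 1 or Late 2 (log2 fold changes 0.43 to 0.55, adjusted p = 0.0867 to 0.146), and with library totals it turned to -0.26 (0.61 relative to the median of all genes, adjusted p = 0.143).

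Related RNA-binding and splicing genes were counted in 6 lists for Late against Basal, where 49.1% of all genes tested passed, 25.4% rising and 23.6% falling. Of 20 hnRNP-like genes under other symbols, 5 rose and 8 fell (65%). They include Tardbp (log2 fold change -1.21 ± 0.16, adjusted p = 2.76e-05), the gene of TDP-43, which represses cryptic exons. They also include Rbmx (log2 fold change -1.07 ± 0.15, adjusted p = 5.97e-05) and Matr3 (log2 fold change -0.72 ± 0.12, adjusted p = 0.000223), a nuclear matrix protein. Of 22 SR-like and SR-related genes, 9 rose and 4 fell (59.1%), among them Rbm25 (log2 fold change 2.28 ± 0.28, adjusted p = 1.49e-05) and Luc7l3 (log2 fold change 1.64 ± 0.22, adjusted p = 3.7e-05), which act at 5′ splice sites, Bclaf1 (log2 fold change -0.98 ± 0.14, adjusted p = 7.64e-05) and Acin1 (log2 fold change 1.37 ± 0.23, adjusted p = 0.000206). Of 9 kinases of SR proteins, 2 rose and 3 fell (55.6%), with Srpk2 at 0.72 ± 0.14, Srpk1 at 0.78 ± 0.17, Srpk3 at -1.31 ± 0.28 and Prpf4b at -0.36 ± 0.14.

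Of 20 neuronal splicing regulators, 13 rose and 4 fell in Late against Basal, together 85% against 49.1% of all genes tested. Their median log2 fold change was 0.56, against -0.034 over all genes tested. Khdrbs3, also called SLM2 and known for the splicing of neurexins, was 4.86-fold higher in Late (log2 fold change 2.28 ± 0.27, adjusted p = 1.12e-05). Celf4 (log2 fold change 1.23 ± 0.18, adjusted p = 6.27e-05), Elavl3 (log2 fold change 0.76 ± 0.14, adjusted p = 0.000616) and Celf5 (log2 fold change 0.57 ± 0.11, adjusted p = 0.000833) rose as well. Of 33 core spliceosome genes, 7 rose and 4 fell, and their 33.3% lay below the 49.1% of all genes. Snrpa1 of the U2 particle (log2 fold change 1.62 ± 0.29, adjusted p = 0.000392) and Sf3b2 (log2 fold change 1.20 ± 0.22, adjusted p = 0.000417) rose, while Prpf8 (log2 fold change -0.66 ± 0.12, adjusted p = 0.000462) and Sf3b1 (log2 fold change -0.64 ± 0.12, adjusted p = 0.000624) fell. Of 10 genes of nonsense-mediated decay, 4 rose and 1 fell, 5 of 10 in all. The 4 with the smallest p were Upf3a (log2 fold change 1.94 ± 0.30, adjusted p = 0.000118), Upf2 (log2 fold change 0.90 ± 0.15, adjusted p = 0.000264), Upf3b (log2 fold change 0.69 ± 0.15, adjusted p = 0.00222) and Smg9 (log2 fold change 0.82 ± 0.21, adjusted p = 0.00452).

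In Reactivated against Late, 2 of the 20 hnRNP-like genes rose and 4 fell, with Pcbp1, which binds runs of C, at log2 fold change 0.82 ± 0.16, adjusted p = 0.00158. Of the 22 SR-like and SR-related genes 0 rose and 4 fell, namely Luc7l3 (-1.07 ± 0.22), Rbm25 (-1.28 ± 0.27), Rbm39 (-0.48 ± 0.13) and Acin1 (-0.74 ± 0.22), with 22.6% of all genes tested past the threshold. Of the kinases 0 of 9 passed. Of the neuronal regulators 1 rose and 5 fell, among them Qk (-0.88 ± 0.22), Mbnl1 (-0.61 ± 0.16), Celf5 (-0.41 ± 0.11) and Celf4 (-0.59 ± 0.17). Of the core spliceosome 4 rose and 2 fell, with Snrpa at 0.92 ± 0.19 and Sf3a3 at -0.77 ± 0.24. Of the decay genes 0 rose and 1 fell, Upf2 at -0.53 ± 0.15.

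In Reactivated against Basal the counts were 3 up and 6 down of the hnRNP-like genes, 6 and 2 of the SR-like and SR-related genes, 1 and 0 of the kinases, 4 and 3 of the neuronal regulators, 5 and 3 of the core spliceosome and 2 and 1 of the decay genes. The lists thus had 45%, 36.4%, 11.1%, 35%, 24.2% and 30.0% of their genes called, in that order, against 39.4% of all genes tested (20.6% rising and 18.8% falling). Pcbp1 was at 1.11 ± 0.16, Tardbp at -1.07 ± 0.16, Scaf1 at 1.09 ± 0.23, Srpk2 at 0.75 ± 0.14 and Khdrbs3 at 2.12 ± 0.27. Nova1, the gene of a neuronal regulator of inhibitory synapse transcripts, fell there (log2 fold change -0.99 ± 0.20, adjusted p = 0.00209). In Early against Basal without the replicate block the neuronal regulators were the only list of the 6 with calls, 3 of 20 (15%), where 6.03% of all genes tested passed. Khdrbs3 (log2 fold change 1.73 ± 0.26, adjusted p = 0.00105), Rbfox2 (log2 fold change 0.48 ± 0.12, adjusted p = 0.0337) and Elavl2 (log2 fold change 0.70 ± 0.19, adjusted p = 0.0385) rose, and 0 fell. With the block on the libraries of both groups alone, 8 neuronal regulators rose and 4 fell, 7 hnRNP-like genes fell, and 1 or 2 genes of each other list passed, where 17.3% of all genes passed. Several of these genes differ between hippocampal subfields, whose markers moved in the same comparison as given above, and the part of that in their values was not tested.

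**Figure D5:**
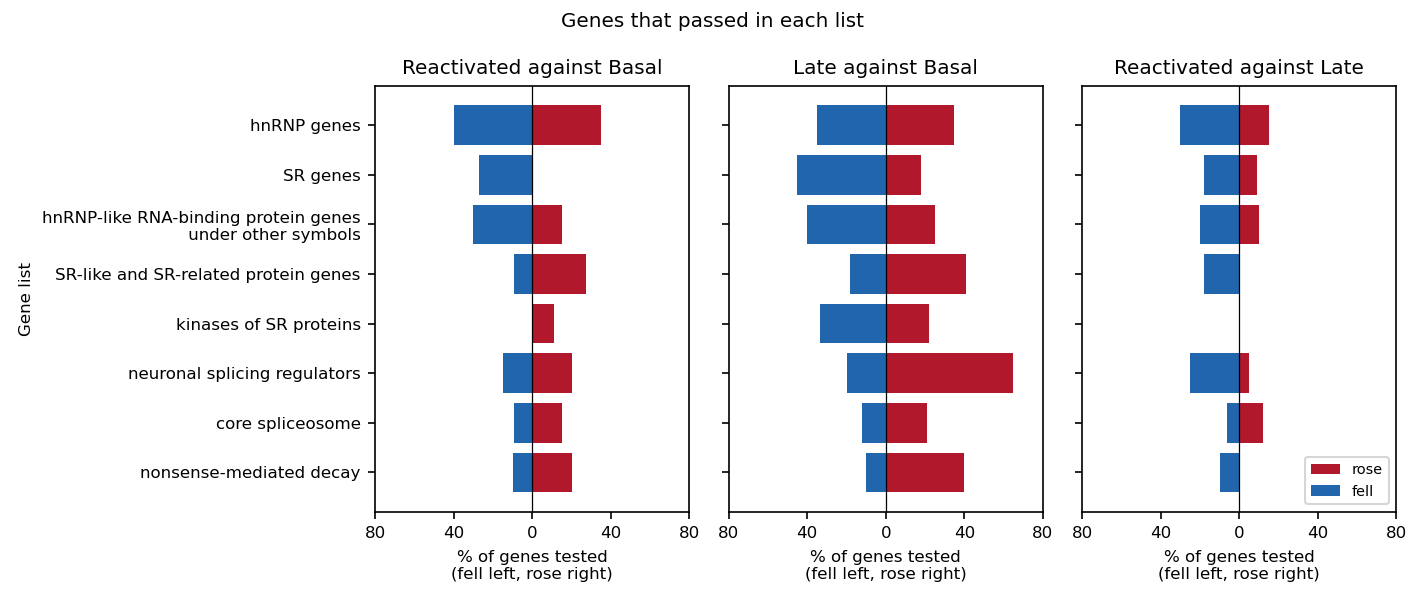
Percent of the tested genes of each list that rose (right) or fell (left), for the hnRNP genes, the SR genes and the 6 lists of related genes. The comparisons are Reactivated against Basal, Late against Basal and Reactivated against Late. In Late against Basal the neuronal splicing regulators have 13 of 20 genes up. Over all genes tested, which are not drawn, 25.4% rose and 23.6% fell there.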

How the data were processed

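RNA of nuclei sorted from mouse hippocampus was measured in 12 libraries, 3 for each of 4 groups that were read from the titles. Libraries were made from RNA of fixed nuclei with a stranded total RNA kit, depletion of ribosomal cDNA and 15 PCR cycles, per the labels' protocols, while the series' design text names SmartSeq2. Bowtie2 2.0, Cufflinks 2.2, DESeq2 and the build mm9 are named in the submitters' processing notes without roles, while the tool that counted reads, with its annotation and use of strand, is not given in the sources used here. Whole-number counts for 24015 rows were deposited by the authors in 1 table. It is titled as normalized, but the values show no scaling and were used as raw counts. Dates stood in place of symbols in 27 rows, 4 rows shared a symbol with another row, and 2989 rows were 0 in all libraries. No hnRNP or SR symbol was among the shared ones.

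Genes with at least 10 counts in at least 3 libraries (15668) were tested with the quasi-likelihood test of edgeR 4.0.16 (R 4.3.3, limma 3.58.1) on TMM-scaled counts, with the 4 group means fitted together. Two-sided p-values were adjusted within each of 6 comparisons over every gene tested (Benjamini-Hochberg), at a threshold of 0.05. Errors are SD over the 3 libraries of a group, or SE of a log2 fold change. A replicate was read as a pool of mice, and p-values measure the spread between these libraries. Libraries 1 and 2 of Late, Early and Basal lay much closer to each other than to library 3. Whether they come from separate pools was not tested. If they do not, the p-values of calls with these groups are too small. Total counts were 4838166 to 11120255 per library, and counts without molecular identifiers are not independent molecules. Same-numbered Early and Basal libraries deviated together from their group means (r of 0.33, 0.14 and 0.48). This was seen in the data and is not stated in the labels. Early 2 had the higher r with Basal 1 (0.22), and Early 1 with Basal 2 had 0.17. Library 3 of either group with library 1 or 2 of the other had r of -0.40 to -0.22. The data thus set library 3 apart from 1 and 2, more than they paired libraries by number. The other 5 pairs of groups did not deviate together by number, since 4 of 18 same-numbered pairs in all had r over 0.1. Groups were fitted without a block, and a blocked fit of Early and Basal alone is given beside the unblocked one.

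The genes and lists were chosen with earlier results of these data known. Each of the 31 genes could be named, with values in every library for the 8 with the smallest p among the 4 groups and for those called in opposite directions, and up to 4 genes by p of each list of related genes. Hnrnpab was added after its values were seen. A gene of the related lists that this rule named is not reported here. Alternatives were other scalings, no count filter, DESeq2 1.42.0, a block by replicate number, the Rn45s share as a covariate, fits of the compared groups alone and leaving out each library. A GC correction (15461 of 15668 genes had a value, 98.7%), the blocked fit of Early and Basal alone, and leaving out Basal 3, Early 3 and Late 3 together were added after seeing the data. Promoters were read from RefSeq tables (GRCm38.p6), and overlaps of exons from GENCODE M21, a later build than that of the counts.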

Additional observations from a re-analysis of the deposited data

How the results depend on the processing

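Counts of genes that passed were within 1.5 times the reported ones in all comparisons with DESeq2 size factors, upper quartile scaling, library totals, no count filter, Rn45s and Lars2 left out of the totals, and the GC correction. With unscaled values 3 genes passed in Reactivated against Basal, 13 in Late against Early, 5 in Reactivated against Late, 4 in Reactivated against Early and 14 in the test among the 4 groups. With the Rn45s share as a covariate 2 passed in Early against Basal, 1 in Late against Basal, 0 in Reactivated against Basal, 0 in Late against Early, 5 in Reactivated against Late, 0 in Reactivated against Early and 7 among the 4 groups. Of all 15668 genes tested, 2264, 4669, 1746, 1584 and 5674 passed with unscaled values, in the order given above. With the covariate 1297, 205, 625, 94, 1860, 0 and 3723 of all genes passed, in its order. The Rn45s share follows the groups, and the median SE was 2.38 times as large in Late against Basal. In Early against Basal DESeq2 called 1 gene, and leaving out Basal 3, Early 3 and Late 3 together gave 1. Fitting the compared groups alone gave 8 in Reactivated against Early. The cause of these changes was not tested.

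Leaving out each library in turn gave 0 to 1 gene in Early against Basal, 16 to 22 in Late against Basal, 13 to 22 in Reactivated against Basal, 15 to 22 in Late against Early, 6 to 15 in Reactivated against Late, 5 to 14 in Reactivated against Early and 21 to 26 among the 4 groups. The lowest counts came without Late 2 (6) in Reactivated against Late and without Early 2 (5) in Reactivated against Early. With a block for the replicate number 0 genes passed in Early against Basal, 21 in Late against Basal, 19 in Reactivated against Basal, 21 in Late against Early, 12 in Reactivated against Late, 11 in Reactivated against Early and 24 among the 4 groups. In the blocked fit of all groups Srsf6 in Reactivated against Late (0.40, adjusted p = 0.0526 by edgeR), Hnrnpk (0.37, adjusted p = 0.0535) and Hnrnpu (0.69, adjusted p = 0.06) in Reactivated against Early no longer passed, Srsf9 in Reactivated against Basal (-0.41) and Srsf4 in Reactivated against Late (0.60) passed in addition, and no other call changed. Apart from Early and Basal, same-numbered libraries did not deviate together as a rule. Late 3 deviated opposite to Basal 3 (r of -0.18) and Early 3 (r of -0.22), so the block joined unlike libraries there. Like counts under it therefore do not show that a pairing was accounted for. For Early and Basal alone the block gave 7 genes, against 0 without it.

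Signs turned in 3 settings. With library totals alone the log2 fold changes were, in Late against Basal, Hnrnpc -0.39, Hnrnpk -0.58, Hnrnpl -0.39, Hnrnpm -0.67, Srsf11 -0.26, Srsf2 -0.47, Srsf5 -0.69 and Srsf9 -0.51, and in Reactivated against Basal, Hnrnpk -0.050, and in Late against Early, Hnrnpa2b1 -0.68, Hnrnpc -0.26, Hnrnph3 -0.60, Hnrnpk -0.57, Hnrnpl -0.20, Hnrnpm -0.32, Hnrnpul1 -0.46, Srsf2 -0.090, Srsf5 -0.73 and Srsf9 -0.20, and in Reactivated against Early, Hnrnpk -0.039. All 20 kept their reported sign relative to the median of all genes. With unscaled values Hnrnpm was at -0.024 in Late against Early. With the Rn45s share as a covariate they were, in Late against Basal, Hnrnpa1 0.48, Hnrnpc -0.45, Hnrnpdl 0.16, Hnrnpr 0.15, Srsf11 -0.79 and Srsf3 0.48, and in Reactivated against Basal, Hnrnpu -0.36, and in Late against Early, Hnrnpa1 0.48, Hnrnpc -0.37, Hnrnpdl 0.20, Hnrnpm -0.17 and Srsf2 -0.63, and in Reactivated against Early, Hnrnpu -0.27. The lowest count of any of the 31 genes in a library was 18, and 3 libraries a group limit the precision of small changes.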
